A study of Mus musculus with 2084 samples.

Results

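The astrocytes of the ventricular-subventricular zone (vSVZ), the stem cell niche along the lateral ventricles of the adult mouse brain, were taken as the 229 cells that the submitters labelled vSVZ astrocyte, of 2084 labelled cells in all. Each cell was profiled on its own by Smart-seq3, a full-length single-cell RNA sequencing method, as the transcriptome part of an assay that also reads the epigenome of the same cell. The cells fell into 3 arms. The naive TiCY arm held 114 cells of replicate pM, the naive IFN(A/G)R KO arm held 79 cells of replicate pJ, and the TiCY-IFN(A/G)R KO arm 2 days after ischemia held 36 cells, also of pJ. These are called naive TiCY, naive KO and ischemic KO here. The last 2 groups share the interferon receptor knockout, and the first and the last share TiCY, a tamoxifen-inducible Cre in cells that express Tlx (Nr2e1), which switches on a yellow fluorescent protein in stem cells and their progeny. TiCY mice received tamoxifen at 2 months of age, and both carotid arteries were occluded 2 weeks later in the ischemic arm. A replicate letter stood for 1 mouse or a pool of mice, genotype and letter differed together between the naive TiCY and naive KO arms, and the ischemic KO arm differed from the naive KO arm in TiCY and in treatment. Each arm counted as 1 sample, and the cells in it were not replicates of a condition.

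Astrocytes clear glutamate and potassium from around synapses, are joined by gap junctions, hold the water channel of the blood-brain interface and release lactate, lipoproteins and matrix proteins. The stem cells of the vSVZ carry much of the same program, from which they pass through activation and division to transit-amplifying progenitors and neuroblasts. The types of this lineage that the labels gave in the same arms were qNSC2 (quiescent stem cells), aNSC (activated stem cells), TAP (transit-amplifying progenitors) and neuroblasts. Striatal astrocytes came from the neighbouring tissue.

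A vSVZ astrocyte had a median of 162568 counts in the naive TiCY arm, 165929 in the naive KO arm and 118136 in the ischemic KO arm, within a range of 5305 to 453423 over all cells, and a median of 3724 to 4948 genes. Summed over cells, the arms held 17371644, 11827979 and 5689487 counts. No pair of cells had identical counts. Of the 229 cells, 1 had a title that does not name the vSVZ GLAST gate. GLAST is the glutamate transporter used to sort astrocytes and stem cells. Levels below are counts per 1000000 (CPM) of these sums after TMM scaling, and values of the 3 arms are given in the order naive TiCY, naive KO, ischemic KO. Marker genes of the lineage were far below their own types: the 20 neuroblast genes summed to 313, 340 and 517 CPM, against 20483 to 24433 CPM in the neuroblasts. The 20 proliferation genes summed to 167, 73.7 and 84.7 CPM, against 6697 to 11160 CPM in TAPs. The 16 oligodendrocyte genes summed to 107, 116 and 205 CPM, with Cnp at 57.0, 62.3 and 151 CPM and Sox10, Ermn and Opalin at 0. That was above the TAPs (35.3 to 46.1 CPM). In both naive arms it was near qNSC2 (102, 113 and 82.2 CPM) and below the neuroblasts (115, 163 and 113 CPM). The 11 endothelial and pericyte genes summed to 67.7, 81.5 and 86.7 CPM, mostly Pdgfrb (47.2, 74.1 and 73.1 CPM), with Cldn5 and Kdr at 0. The 10 ependymal and choroid genes summed to 63.7, 102 and 164 CPM, mostly Rarres2 (53.6, 73.4 and 138 CPM), with Tmem212 and Pifo at 0. The 11 microglial genes summed to 45.1, 21.9 and 24.9 CPM, with C1qb and Tmem119 at 0.

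The knocked-out receptors were read first. Ifngr1, which encodes the ligand-binding chain of the interferon gamma receptor, had 482 counts (30.2 CPM) in the naive TiCY vSVZ astrocytes and 0 in both knockout arms. Set against a floor of 3 counts per sum, that was at least 104-fold lower in the naive KO arm and at least 50.1-fold lower in the ischemic KO arm. Some other types kept a few Ifngr1 counts in the knockout arms. Over the 3 arms it had 551, 2 and 22 counts in striatal astrocytes and 63, 2 and 11 in qNSC2. Neuroblasts had 15, 0 and 4 counts, aNSC 59, 0 and 0, and TAPs 0, 0 and 11. Ifnar1, a chain of the type I interferon receptor, had 813 counts (50.9 CPM; exact Poisson 95% interval 47.5 to 54.5), 109 counts (10.6 CPM; 8.69 to 12.8) and 4 counts (0.803 CPM; 0.219 to 2.06). Its fall was not alike in all types. It stood at 58.2, 8.39 and 17.2 CPM in qNSC2 and at 67.1, 9.16 and 12.5 CPM in striatal astrocytes. In aNSC it stood at 26.7, 80.5 and 11.7 CPM, in TAPs at 44.6, 0 and 29.5 CPM and in neuroblasts at 48.4, 0 and 37.9 CPM. The naive KO sums of aNSC, TAPs and neuroblasts held only 7, 9 and 8 cells, so single cells can weigh heavily in them. The partner chains Ifnar2 (40.3, 73.2 and 42.3 CPM) and Ifngr2 (19.4, 12.3 and 24.3 CPM) had counts in every arm. Which exons the alleles lack is not given in the sources used here. These intervals, like all those given for sums and shares here, cover counting error only.

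The label was checked against 5 astrocyte markers. Slc1a2, the main astrocytic glutamate transporter, stood at 24455, 21624 and 16708 CPM in vSVZ astrocytes, at 15730, 11498 and 9362 CPM in qNSC2 and at 159, 11 and 72.1 CPM in neuroblasts. Aqp4, the water channel, stood at 773, 790 and 373 CPM, and in qNSC2 at 85.1, 99.0 and 87.6 CPM. Gja1, the gap junction protein connexin 43, stood at 2772, 1447 and 1108 CPM against 1253, 592 and 425 CPM in qNSC2. Slc1a2 and Aqp4 had every vSVZ astrocyte sum above every qNSC2 sum, whereas Gja1 had that order within each arm but not across arms. S1pr1, a sphingosine-1-phosphate receptor, stood at 1251, 1297 and 656 CPM against 372, 342 and 177 CPM in qNSC2. Sox9, a transcription factor of both astrocytes and stem cells, did not part them: it stood at 448, 711 and 69.8 CPM in vSVZ astrocytes and at 774, 808 and 140 CPM in qNSC2. In the GRCm38 (mm10) annotation Gja1 lies on chromosome 10 (56377330 to 56402513, plus strand), S1pr1 on chromosome 3 (115710433 to 115715072, minus strand), Sox9 on chromosome 11 (112782224 to 112787760, plus strand) and Slc1a2 on chromosome 2 (102658659 to 102790784, plus strand).

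**Figure D1:**
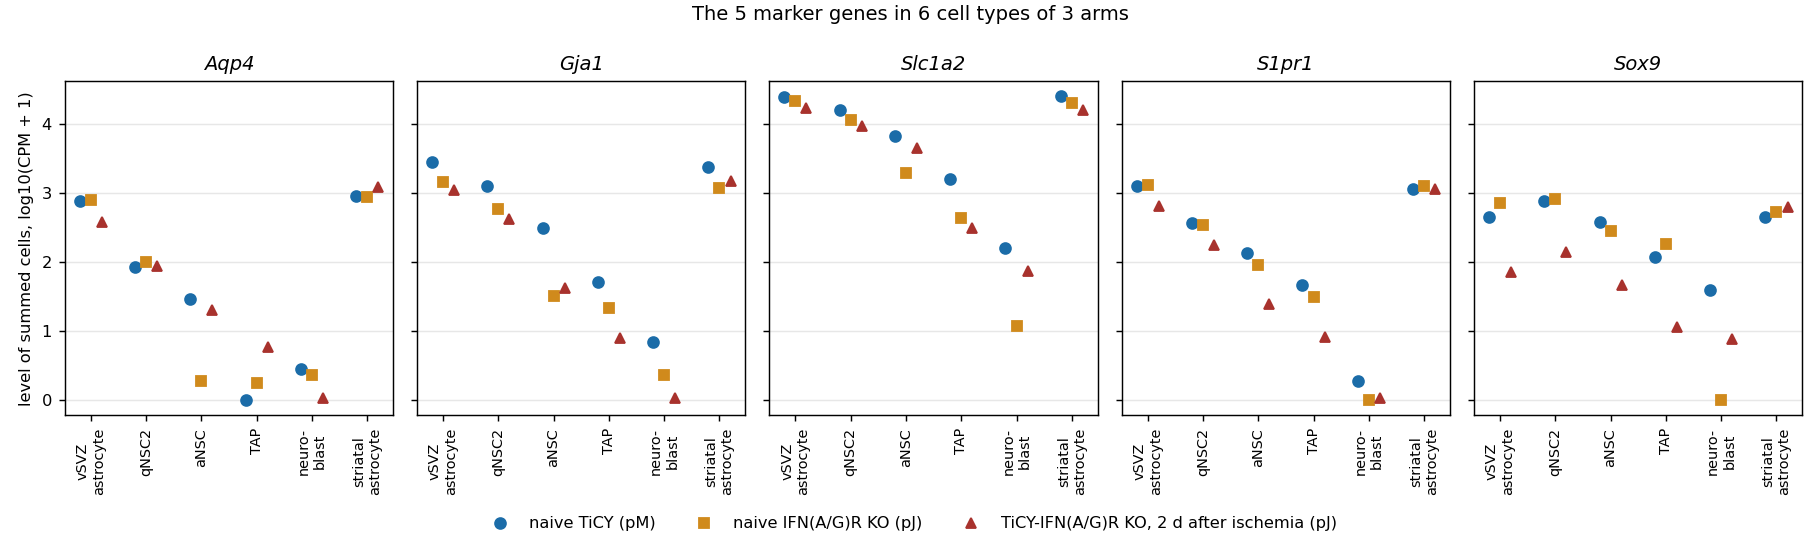
Level of the 5 marker genes, as log10(CPM + 1) of summed cells, in 6 cell types; each symbol is the sum of 1 arm. Within each arm Aqp4, Gja1, Slc1a2 and S1pr1 are lower in qNSC2 than in vSVZ astrocytes and lower again in aNSC, TAP and neuroblasts. Sox9 is highest in qNSC2 among the vSVZ types, and the ischemic KO striatal astrocytes lie well above the ischemic KO vSVZ astrocytes for Sox9 and Aqp4.

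Marker detection was compared at one depth, after thinning each cell to 50000 counts, which left 109, 67 and 29 cells and set aside 24. Gja1 and Slc1a2 were counted in 100% of the cells of each arm. S1pr1 was counted in 100%, 100% and 96.6% of them, Aqp4 in 99.1%, 94.0% and 82.8%, and Sox9 in 98.2%, 94.0% and 65.5% (exact binomial 95% interval 45.7 to 82.1 in the ischemic KO arm). Neuroblasts, which should lack these genes, gave 8.33%, 0% and 1.72% for Aqp4 and 0% for S1pr1 in each arm, but 50.0%, 37.5% and 29.3% for Slc1a2. A count of 0 among the 12, 8 and 58 thinned neuroblasts allows a share of up to 25%, 37.5% and 5.17%. Without thinning, Aqp4 was counted in 100%, 94.9% and 83.3% of vSVZ astrocytes and Sox9 in 98.2%, 94.9% and 83.3%. The neuroblast gene Dcx was counted in 0 of the 109, 67 and 29 thinned vSVZ astrocytes, which allows a share of up to 2.75%, 4.48% and 10.3%, and in 96.6% to 100% of the neuroblasts.

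Whether the labels that part vSVZ astrocytes from the lineage types rest on these transcriptomes is not given in the sources used here. All 5 types came through the same GLAST gate by their titles, apart from 1 vSVZ astrocyte, so the differences between them are described with no test. A gene was compared where the higher type had at least 20 CPM in each arm, and counted where the log2 ratio of (CPM + 5) was at least 2-fold in the same direction in all 3 arms. Genes low in both types therefore enter no count.

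Against qNSC2, the stem cell type most like them, vSVZ astrocytes had more of the transport, channel, receptor and matrix genes of mature astrocytes and less of the quiescent stem cell and immediate early genes. Of 6916 genes compared, 268 (3.88%) were at least 2-fold higher in each arm and 164 (2.37%) at least 2-fold lower. With any 1 arm left out, fewer sums had to pass and the counts were larger: 453 and 353 without naive TiCY, 423 and 295 without naive KO, and 477 and 283 without ischemic KO. The higher genes made up 62% of those counted, and 46.3% without TMM scaling, under which the median of all genes shifted by -0.17 on the log2 scale. Of the 5 markers, 3 were counted as higher and 0 as lower: Aqp4 with log2 ratios of 3.11, 2.93 and 2.03, S1pr1 with 1.74, 1.91 and 1.86, and Gja1 with 1.14, 1.28 and 1.37. Slc1a2 stayed under the 2-fold line at 0.64, 0.91 and 0.84, and Sox9 was at -0.78, -0.18 and -0.95.

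The 6 leading higher genes against qNSC2 were Il33, Agt, Hsd11b1, Clmn, S100b and Atp13a5. Il33, an alarmin cytokine of astrocytes, stood at 272, 194 and 128 CPM against 4.69, 2.34 and 2.46 CPM. Agt, the angiotensin precursor, stood at 64.4, 78.4 and 462 CPM against 0, 1.37 and 4.69 CPM. Both were separate from qNSC2 in every arm, and Agt was highest in the ischemic KO arm. S100b, a calcium-binding protein of mature astrocytes, was even across arms at 160, 145 and 160 CPM against 8.89, 10.5 and 6.93 CPM. Hsd11b1, the enzyme that regenerates active glucocorticoid, stood at 38.5, 100 and 98.9 CPM against 0.162, 0.390 and 0 CPM. Atp13a5 was absent from the counts of qNSC2 in each arm and stood at 47.4, 40.9 and 46.6 CPM in vSVZ astrocytes.

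Among 14 genes of potassium buffering, water flow and gap junctions, all were compared, 7 were counted as higher and 0 as lower, with a median log2 ratio of 0.90 beside 0.09 over all genes. Slc4a4, a sodium bicarbonate cotransporter, stood at 1778, 1259 and 1040 CPM against 450, 371 and 249 CPM. Kcnj16, an inward rectifier potassium channel, stood at 45.8, 32.4 and 94.5 CPM against 0, 0 and 3.91 CPM. Kcnj10, its channel partner, did not follow: it had log2 ratios of -0.34, 0.06 and 0.45. The gap junction gene Gjb6 (connexin 30) stood at 271, 135 and 260 CPM against 61.7, 6.25 and 44.5 CPM.

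Of 13 genes of glutamate and GABA uptake, 12 were compared and 4 were counted as higher, with a median log2 ratio of 0.91. Slc25a18, a mitochondrial glutamate carrier, stood at 95.8, 101 and 374 CPM against 12.1, 12.3 and 70.6 CPM. The GABA transporter gene Slc6a11 stood at 357, 388 and 236 CPM against 151, 120 and 108 CPM. Slc1a3, which encodes the GLAST antigen of the gate itself, stood at 5948, 6852 and 3975 CPM against 3610, 3931 and 2340 CPM and did not reach 2-fold.

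Receptor genes gave 4 higher and 0 lower of 16 compared. Grm3, a metabotropic glutamate receptor, stood at 1039, 577 and 333 CPM against 230, 192 and 78.3 CPM. Adora2b, an adenosine receptor, stood at 47.1, 95.3 and 51.0 CPM against 8.89, 0 and 14.6 CPM. Of 13 compared genes of synapse and matrix factors, 5 were higher and 1 was lower. Sparcl1 (hevin), a secreted synapse-promoting protein, stood at 6150, 6323 and 3502 CPM against 1162, 1306 and 1209 CPM. The single lower gene was Thbs4, a secreted thrombospondin that also marks quiescent stem cells.

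Metabolic lists stood nearer to qNSC2. Glycolysis, glycogen and lactate genes gave 2 higher of 17, among them the phosphofructokinase gene Pfkm at 255, 265 and 368 CPM against 86.4, 96.2 and 94.8 CPM. Fatty acid oxidation and ketone genes gave 2 higher of 19, Acsbg1 and Acsl6, both acyl-CoA synthetases. Acsbg1 stood at 901, 720 and 861 CPM against 272, 275 and 350 CPM. Serine and glycine genes gave 2 higher of 8 and cholesterol genes 1 of 15. None of these 4 lists had a gene counted as lower.

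Quiescent stem cell genes gave 1 higher and 6 lower of 15 compared, with a median log2 ratio of -0.56. Thbs4 stood at 122, 104 and 155 CPM against 781, 631 and 761 CPM in qNSC2. Vim and Gfap, intermediate filament genes that are also on the list of reactive astrocyte genes, stood at 34.2, 39.2 and 667 CPM and at 37.6, 70.5 and 1433 CPM, against 191, 192 and 2228 CPM and 175, 156 and 4212 CPM. In the ischemic KO arm both types were higher in these 2 genes, and vSVZ astrocytes of that arm exceeded the naive qNSC2. Tshr, the thyrotropin receptor, stood at 0.939, 4.08 and 4.21 CPM against 125, 93.9 and 73.5 CPM. Hopx was the member counted as higher, at 33.8, 52.5 and 33.1 CPM against 13.1, 0.976 and 3.35 CPM. Nr2e1, the gene that marks the cells in which the TiCY recombinase acts, was present in both types, at 168, 180 and 130 CPM against 252, 230 and 396 CPM and was counted in 78.9%, 70.1% and 65.5% of thinned vSVZ astrocytes.

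Among genes of activated stem cells and TAPs, 3 of 6 compared were lower and 0 higher. The cell cycle gene Ccnd2 stood at 127, 135 and 120 CPM against 885, 666 and 826 CPM. Ribosomal protein genes had a median log2 ratio of -0.90, with 2 of 30 counted as lower and 0 as higher. Enkur and Armc3, both known from cilia, were among the leading lower genes: Enkur stood at 2.00, 0.776 and 0 CPM against 63.7, 219 and 95.1 CPM, and Armc3 at 0.814, 0.291 and 0 CPM against 93.2, 84.7 and 121 CPM. Beside these 2, the summed ependymal and choroid genes stood at 161, 287 and 348 CPM in qNSC2, above the vSVZ astrocytes in each arm; 2 of that list could be compared, 0 were counted as lower, and the part of ependymal RNA in the difference was not tested.

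Immediate early genes, which cells switch on within minutes of stimulation or dissociation, had the lowest list median against qNSC2, -3.17, with 5 lower and 0 higher of 6 compared. Against striatal astrocytes 1 gene of this list could be compared, so most of the 6 entered only through their level in qNSC2. Fos, a subunit of the transcription factor AP-1, stood at 5.07, 27.0 and 63.6 CPM against 786, 270 and 1155 CPM. Egr1, a zinc finger factor, stood at 0, 7.38 and 24.7 CPM against 147, 254 and 242 CPM. Junb stood at 4.13, 7.47 and 28.1 CPM against 96.1, 113 and 225 CPM, Btg2 at 12.8, 19.9 and 9.83 CPM against 57.8, 83.4 and 241 CPM, and Klf4 at 5.95, 7.18 and 0 CPM against 119, 67.5 and 49.3 CPM. Few qNSC2 cells carried the Fos counts in the naive arms: the median thinned cell of qNSC2 had 0, 0 and 70.0 CPM and the highest 13240, 4860 and 8440 CPM. In vSVZ astrocytes Fos was counted in 8.26%, 11.9% and 20.7% of thinned cells.

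Because these genes were lower together, their promoters were read from RefSeq on GRCm38.p6, as 250 bases before and 50 bases after the start, for the cyclic AMP response element TGACGTCA, its core TGACGT, which lies inside it, and the serum response CArG box, on both strands. Of 32817 promoters of that length, 1.79%, 7.51% and 1.63% held a match. Egr1 was not read. Of the 4 promoters read for the other lower genes, Fos and Btg2 held the core, Btg2 held the whole element, Junb and Klf4 held neither, and none held the CArG box in this window. The 2 promoters with a match are printed 5′ to 3′ on the gene's strand, with the match in capitals; Fos lies at chr12:85473640-85473939 on the plus strand and Btg2 at chr1:134079106-134079405 on the minus strand.
Fos: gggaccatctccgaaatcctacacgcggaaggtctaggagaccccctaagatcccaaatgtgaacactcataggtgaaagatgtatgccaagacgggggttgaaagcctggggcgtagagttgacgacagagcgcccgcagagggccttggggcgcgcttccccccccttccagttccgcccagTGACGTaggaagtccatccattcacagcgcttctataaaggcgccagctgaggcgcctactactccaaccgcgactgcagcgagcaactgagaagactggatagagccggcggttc
Btg2: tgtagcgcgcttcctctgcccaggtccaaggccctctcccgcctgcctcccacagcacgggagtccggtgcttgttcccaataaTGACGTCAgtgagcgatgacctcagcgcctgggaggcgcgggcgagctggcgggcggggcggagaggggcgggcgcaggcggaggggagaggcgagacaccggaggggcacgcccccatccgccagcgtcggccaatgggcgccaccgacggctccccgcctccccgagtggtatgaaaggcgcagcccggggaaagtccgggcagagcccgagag

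**Figure D2:**
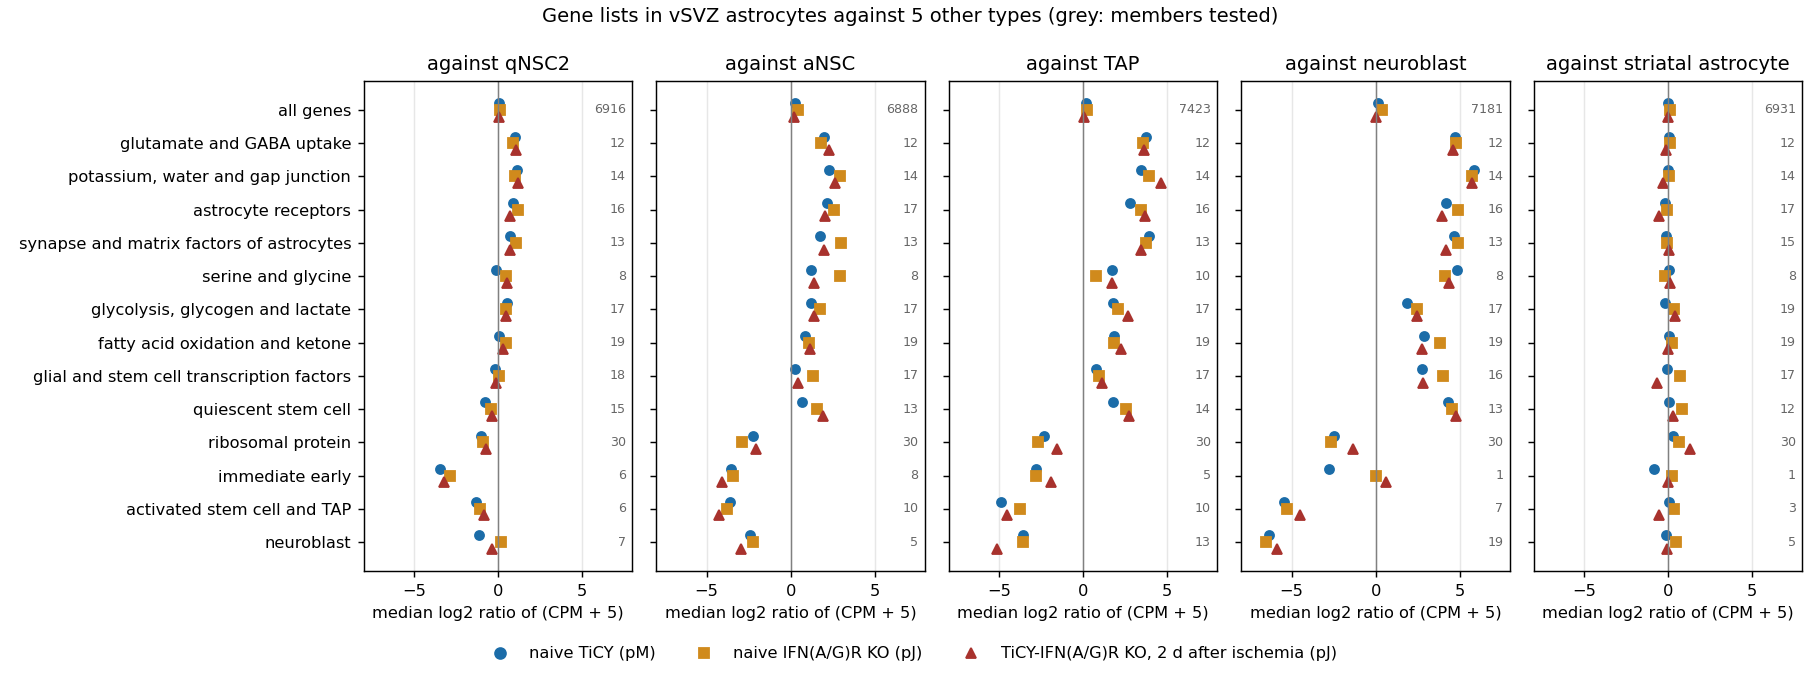
Median log2 ratio of (CPM + 5) over each gene list in vSVZ astrocytes against 5 other types; each symbol is 1 arm, and grey numbers give how many members could be compared. The uptake, potassium, receptor and synapse lists sit right of 0 and further right from qNSC2 to neuroblasts, the ribosomal and activated stem cell lists sit left, and against striatal astrocytes most lists sit near 0.

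Further along the lineage the same astrocyte lists stood further apart. Against aNSC, 1011 of 6888 genes (14.7%) were counted as higher and 559 (8.12%) as lower, and the higher ones made up 64.4% of those counted, or 47.4% without TMM scaling. Without naive TiCY the counts were 1523 and 848, and without ischemic KO 1607 higher genes were counted; without naive KO 843 lower ones were. Potassium, water and gap junction genes gave 11 higher of 14 (median log2 2.54, beside 0.37 over all genes), glutamate and GABA genes 9 of 12 and synapse and matrix genes 10 of 13, with none lower in these lists. All 30 ribosomal protein genes and all 10 activated stem cell genes compared were counted as lower. Of the activated stem cell list 3 genes could be compared against striatal astrocytes, so most of the 10 entered only through their level in aNSC. Fam20a, a regulator of secreted-protein phosphorylation, stood at 433, 287 and 253 CPM against 1.87, 0.884 and 0.244 CPM. Cxcl14, a chemokine, stood at 584, 655 and 274 CPM against 12.6, 0 and 5.36 CPM. Slit1, an axon guidance ligand, stood at 0.188, 0 and 0.401 CPM against 204, 200.0 and 299 CPM, and Ccnd2 was at 3132, 3610 and 5029 CPM in aNSC. The naive KO aNSC sum held only 7 cells.

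Against TAP, 1507 of 7423 genes (20.3%) were higher and 1141 (15.4%) lower, and without TMM scaling 1265 were higher and 1344 lower. The TAP sums held only 8, 9 and 21 cells. All 19 proliferation genes compared were lower (median log2 -4.35), as were 12 of 13 neuroblast genes and 28 of 30 ribosomal protein genes. Against striatal astrocytes 0 proliferation and 5 neuroblast genes could be compared. All 19 and most of the 13 thus entered only through their level in TAPs, which favours that direction. Top2a, the topoisomerase of dividing cells, stood at 8.96, 3.01 and 0.201 CPM against 3567, 2067 and 2042 CPM. Mki67, also a gene of dividing cells, stood at 40.2, 0.0970 and 0 CPM in vSVZ astrocytes, and was counted in 14.7% of thinned naive TiCY cells (exact binomial interval 8.63 to 22.7) and in 0 of 67 and 0 of 29 cells of the other arms. It stood at 51.5 CPM in the qNSC2 and 25.2 CPM in the striatal astrocytes of the naive TiCY arm. Clu, a secreted chaperone, stood at 4300, 4872 and 7324 CPM against 21.6, 1.60 and 13 CPM.

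Against neuroblasts, 1524 of 7181 genes (21.2%) were higher and 1000 (13.9%) lower. Of 20 listed astrocyte receptor genes 16 could be compared and all 16 were higher, as were 13 of 14 potassium, water and gap junction genes and 14 of 17 glycolysis, glycogen and lactate genes. Members near 0 in neuroblasts, such as S1pr1 (0.931, 0 and 0.0873 CPM), entered only through vSVZ astrocytes, which favours that direction. All 19 neuroblast genes compared were lower, with a median log2 ratio of -6.39. Against striatal astrocytes 5 genes of this list could be compared, so most of the 19 entered only through their level in neuroblasts. Apoe, the main lipoprotein of astrocytes, stood at 13201, 22127 and 29368 CPM against 65.2, 14.2 and 77.3 CPM. The microtubule gene Map1b stood at 0.501, 0.582 and 2.01 CPM against 3409, 2538 and 2247 CPM. The sums of these 2 genes did not overlap between the types.

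The comparison with striatal astrocytes asked whether astrocytes of the niche differ from those of the neighbouring tissue, which was dissected apart before sorting. edgeR's quasi-likelihood test over 18 sums called 0 of 16745 genes as higher and 0 as lower (0% each), while 412 genes (2.46%) had an unadjusted p under 0.05, of which 262 (1.56%) were higher and 150 (0.896%) lower. limma-voom called 0, and DESeq2 called 10 higher (0.0597%) and 2 lower genes (0.0119%). The smallest p was that of Meg3, a long noncoding RNA, with a log2 fold change of 4.28 (SE 0.84), p = 4.8e-05 and an adjusted p of 0.806 in edgeR. DESeq2 gave Meg3 a log2 fold change of 4.23 (SE 0.80) with an adjusted p of 0.000402, and Ldb2, a cofactor of LIM-domain factors, 5.34 (SE 1.05) with an adjusted p of 0.000955. Its calls also included 6 genes at or near 0 in most of the vSVZ and striatal astrocyte sums, whose fitted folds cannot be read as sizes: Ccdc96 (-22.07), Vax1 (17.79), Drc7 (20.65), Olfr543 (18.61), Ube2t (13.02, with an unadjusted p of 0.328 in edgeR) and H19 (19.08).

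As a description, 24 of 6931 genes (0.346%) were at least 2-fold higher and 23 (0.332%) at least 2-fold lower in vSVZ than in striatal astrocytes in each arm. Without the naive TiCY arm they were 234 and 153. Without the naive KO arm they were 40 and 55, and without the ischemic KO arm 59 and 78. None of the 5 markers was counted in either direction, nor any of 14 potassium, water and gap junction genes (median log2 -0.10, beside 0.04 over all genes) or 12 glutamate and GABA genes (median 0.17). Further from 0 were the 30 ribosomal protein genes, with medians of 0.28, 0.67 and 1.28 in the 3 arms and 0 counted, and 5 compared reactive genes, with medians of 0.08, 1.25 and 2.08 and 1 counted as higher.

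The genes higher in vSVZ astrocytes included Thbs4, Sfrp1 and Meg3, each of which was higher still in qNSC2. Thbs4 stood at 122, 104 and 155 CPM in vSVZ astrocytes, at 2.92, 37.3 and 10.5 CPM in striatal astrocytes and at 781, 631 and 761 CPM in qNSC2. Sfrp1, a secreted modulator of Wnt signals, stood at 49.2, 107 and 98.5 CPM against 8.91, 1.41 and 9.07 CPM, with 405, 458 and 356 CPM in qNSC2. edgeR gave both of these genes an adjusted p of 1.00, with log2 fold changes of 2.92 (SE 0.90) for Thbs4 and 3.69 (SE 1.15) for Sfrp1.

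Meg3 followed the same order, at 42.9, 178 and 28.7 CPM against 4.35, 0.704 and 7.49 CPM, with 999, 999 and 522 CPM in qNSC2. Sparc, a secreted matrix glycoprotein, stood at 528, 303 and 904 CPM against 198, 81.7 and 327 CPM, and C4b, a complement component, at 262, 250 and 1302 CPM against 124, 97.9 and 305 CPM. Vit, a secreted matrix gene, stood at 114, 110.0 and 75.1 CPM against 9.86, 37.3 and 12.4 CPM. Both C4b and Sparc were highest in the ischemic KO arm in both tissues.

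Genes lower in vSVZ astrocytes included an enzyme, a Notch ligand and secreted or adhesion proteins. Aldh1a1, a retinaldehyde dehydrogenase, stood at 13, 42.4 and 2.61 CPM against 126, 115 and 55.6 CPM. Dner, a transmembrane ligand of Notch, stood at 22.7, 31.9 and 26.7 CPM against 106, 142 and 82.1 CPM. Chrdl1, a secreted antagonist of bone morphogenetic proteins, stood at 13.6, 13.2 and 13.8 CPM against 113, 139 and 32.7 CPM. The neurexin gene Nrxn3 (24.4, 23 and 4.82 CPM against 74.0, 78.2 and 49.3 CPM) and the laminin gene Lama3 (14.3, 17.9 and 5.42 CPM against 109, 129 and 37.7 CPM) were also lower.

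**Figure D3:**
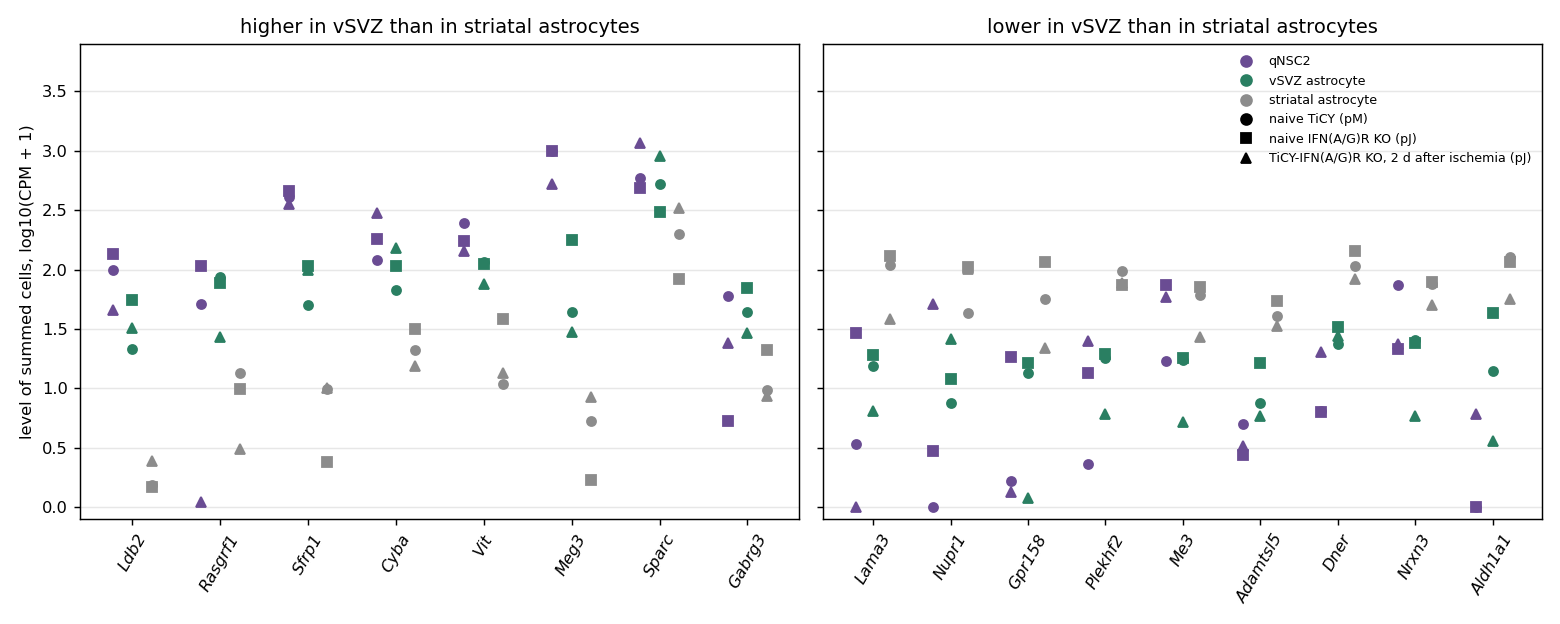
Level of 8 genes higher (left) and 9 genes lower (right) in vSVZ than in striatal astrocytes by at least 2-fold in each arm, as log10(CPM + 1) of summed cells in qNSC2, vSVZ astrocytes and striatal astrocytes; each symbol is 1 arm. Sfrp1 and Meg3 fall in steps from qNSC2 to striatal astrocytes, and the genes on the right lie higher in striatal than in vSVZ astrocytes in each arm.

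Between the naive arms, 1 sum stood against 1 sum, and genotype and replicate letter cannot be told apart, so the ratios have no replicate check. Of 8797 genes, 715 (8.13%) were at least 2-fold higher and 705 (8.01%) lower in naive KO than in naive TiCY vSVZ astrocytes, and without TMM scaling 531 were higher and 752 lower. None of the 5 markers and none of the 14 potassium, water and gap junction genes passed 2-fold. Hif3a, a hypoxia-inducible factor subunit, stood at 95.6 CPM in naive KO and 627 CPM in naive TiCY cells, a log2 ratio of -2.65, with -2.08 in striatal astrocytes and -2.13 in qNSC2. Mertk, a phagocytic receptor, had a log2 ratio of -1.49 (837 against 2359 CPM) and -1.14 in striatal astrocytes. Among 17 cholesterol genes 4 were higher and 0 lower, such as Fdft1, squalene synthase, at 224 against 85.2 CPM. Among 20 glial and stem cell transcription factors 5 were higher, such as Sox2 at 775 against 326 CPM. Across the 8015 genes compared in both tissues, 1120 passed 2-fold in vSVZ astrocytes, of which 342 passed it in the same direction in striatal astrocytes and 46 in the opposite one. The share of all 8015 genes past 2-fold in striatal astrocytes was not counted, so this overlap cannot be set against a background.

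Of 30 listed interferon response genes, 8 could be compared between the naive arms, with 2 higher and 1 lower in naive KO and a median log2 ratio of 0.06. Members differed in level: Ifi27 stood at 231, 172 and 341 CPM, Tapbp at 106, 112 and 267 CPM and B2m at 79.6, 74.1 and 45.0 CPM, whereas Ifit1 and Mx1 had 0 counts in each arm, and Isg15 stood at 1.38, 0.194 and 9.83 CPM. H2-K1, a class I antigen gene, stood at 140 CPM in naive KO against 38.5 CPM in naive TiCY cells, while in striatal astrocytes its log2 ratio was -0.43.

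At 2 days after ischemia the knockout vSVZ astrocytes had more of the reactive genes than the naive KO cells of the same letter. The ischemic mice also carried TiCY, which the naive KO mice did not, so this and ischemia cannot be told apart, and 1 sum stood against 1 sum with no replicate check. Of 9146 genes, 1637 (17.9%) were at least 2-fold higher and 1827 (20.0%) lower. Of 22 reactive genes 11 reached 20 CPM in the higher arm, and all 11 were higher, with a median log2 ratio of 2.23. The same genes had medians of 1.54 in striatal astrocytes and 3.47 in qNSC2. Between the naive arms only 7 of the 22 reached 20 CPM. Some of the 11 thus entered only through the ischemic KO arm, and for these the filter favours a higher value. Gfap stood at 1433 CPM (1400 to 1466) against 70.5 CPM (65.4 to 75.8), and was counted in 89.7% of thinned cells (72.6 to 97.8) against 29.9% (19.3 to 42.3) in the naive KO and 21.1% (13.9 to 30.0) in the naive TiCY arm. Its median thinned cell had 600.0 CPM, against 0 in both naive arms. Vim had a log2 ratio of 3.93, Serpina3n, a serine protease inhibitor, 4.01 (113 against 2.33 CPM), and C4b 2.36. Ribosomal protein genes were higher for 21 of 30 (median log2 1.30, against 1.12 in qNSC2 and 0.53 in striatal astrocytes). Ifitm3, an interferon-inducible membrane gene, stood at 118 against 15.4 CPM.

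Of 20 glial and stem cell transcription factors 5 were lower and 2 higher, beside 20.0% and 17.9% over all genes. Some lower genes of the ischemic KO arm were also lower in other vSVZ types of that arm and not in its striatal astrocytes. Sox9 had a log2 ratio of -3.26 in vSVZ astrocytes and -2.49 in qNSC2, against 0.25 in striatal astrocytes. Fgfr3, a fibroblast growth factor receptor of astrocytes, stood at 180.0 CPM against 910 CPM in the naive KO arm, in qNSC2 at 66.9 against 202 CPM, in aNSC at 14.4 against 13.3 CPM, and in striatal astrocytes at 2536 against 984 CPM. Gpm6a, a neural membrane glycoprotein, stood at 208 against 2298 CPM, in qNSC2 at 85.4 against 873 CPM, in neuroblasts at 42.5 against 200.0 CPM, and in striatal astrocytes at 2042 against 1575 CPM. Malat1, a nuclear long noncoding RNA, stood at 3316 against 9769 CPM, in qNSC2 at 2318 against 11285 CPM, in neuroblasts at 649 against 4793 CPM, and in striatal astrocytes at 13851 against 10104 CPM. Gpm6a and Malat1 were thus lower in qNSC2 and neuroblasts of the ischemic KO arm as well. Sox9 was lower in its qNSC2, aNSC (45.8 against 276 CPM) and TAPs (10.6 against 184 CPM), while neuroblasts had little Sox9 in either arm (6.64 against 0 CPM). None of these 3 genes was lower in the striatal astrocytes of that arm. The part of the plate or library in the ischemic values was not tested. Cholesterol genes gave 5 lower and 0 higher of 17, with a median of -0.49 in vSVZ and -0.67 in striatal astrocytes. Of the 2746 genes that passed 2-fold in vSVZ astrocytes among the 7966 compared in both tissues, 640 passed it in the same direction in striatal astrocytes and 249 in the opposite one. Here too the share of all 7966 genes past 2-fold in striatal astrocytes was not counted.

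The share of vSVZ astrocytes among labelled GLAST-gated vSVZ cells was 60.1% in the naive TiCY arm (113 of 188; exact binomial 95% interval 52.7 to 67.2), 59.0% in the naive KO arm (79 of 134; 50.1 to 67.4) and 15.8% in the ischemic KO arm (36 of 228; 11.3 to 21.2). In that last arm neuroblasts made up 33.3% of the labelled cells of the gate (27.2 to 39.9), qNSC2 29.4%, and 4 cells were labelled reactive astrocyte. The naive shares differed by less than their counting error and the ischemic one lay below both. Each arm was 1 sample and the plates need not sample the gate alike. Cells with no label were left out of these totals, and their number in each gate was not counted.

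Cells within the label were compared for how far each gene varied between them. The spread of each gene was taken as its squared coefficient of variation (CV) in thinned cells, relative to a curve through genes of like mean, for the 1230 genes with a mean of at least 5 thinned counts in each arm; a gene's value is the lowest of its 3 arms on the log2 scale. The median over all 1230 was -0.45, and 256 genes lay above 0 in all arms. Of the markers 4 were ranked, with a median of -0.61 and 0 above the curve in all arms, near the values over all genes. Slc1a2 ran from 11020 to 40240 CPM over single naive TiCY cells (median 22600), from 9580 to 27100 in naive KO (18380) and from 5760 to 29080 in ischemic KO cells (14480), with CVs of 0.240, 0.223 and 0.311. The 9 ranked glycolysis genes had a median of -1.0 and the 12 potassium, water and gap junction genes one of -0.80; since the value is the lowest of 3 arms, it can rest on 1 arm.

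Crym, which encodes the thyroid hormone-binding protein mu-crystallin, had the largest spread of all ranked genes, 2.40, with CVs of 1.34, 1.71 and 2.57. Its median thinned cell had 460 CPM in naive TiCY and 0 in both knockout arms, while the highest cells had 6560, 8140 and 4560 CPM. It was counted in 61.5% (51.7 to 70.6), 43.3% (31.2 to 56.0) and 27.6% (12.7 to 47.2) of cells. A part of the cells in each arm therefore carried Crym at a high level while others had no count. The same unevenness was seen outside the label, with CVs of 1.74, 1.37 and 3.21 in qNSC2 and 1.34, 2.69 and 3.91 in striatal astrocytes. Crym lies on chromosome 7 (120186380 to 120202111, minus strand). Across cells its rank correlation with Slc1a2 was 0.07, 0.06 and -0.07 over the 109, 67 and 29 cells, a description of cells that share a library and depth.

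**Figure D4:**
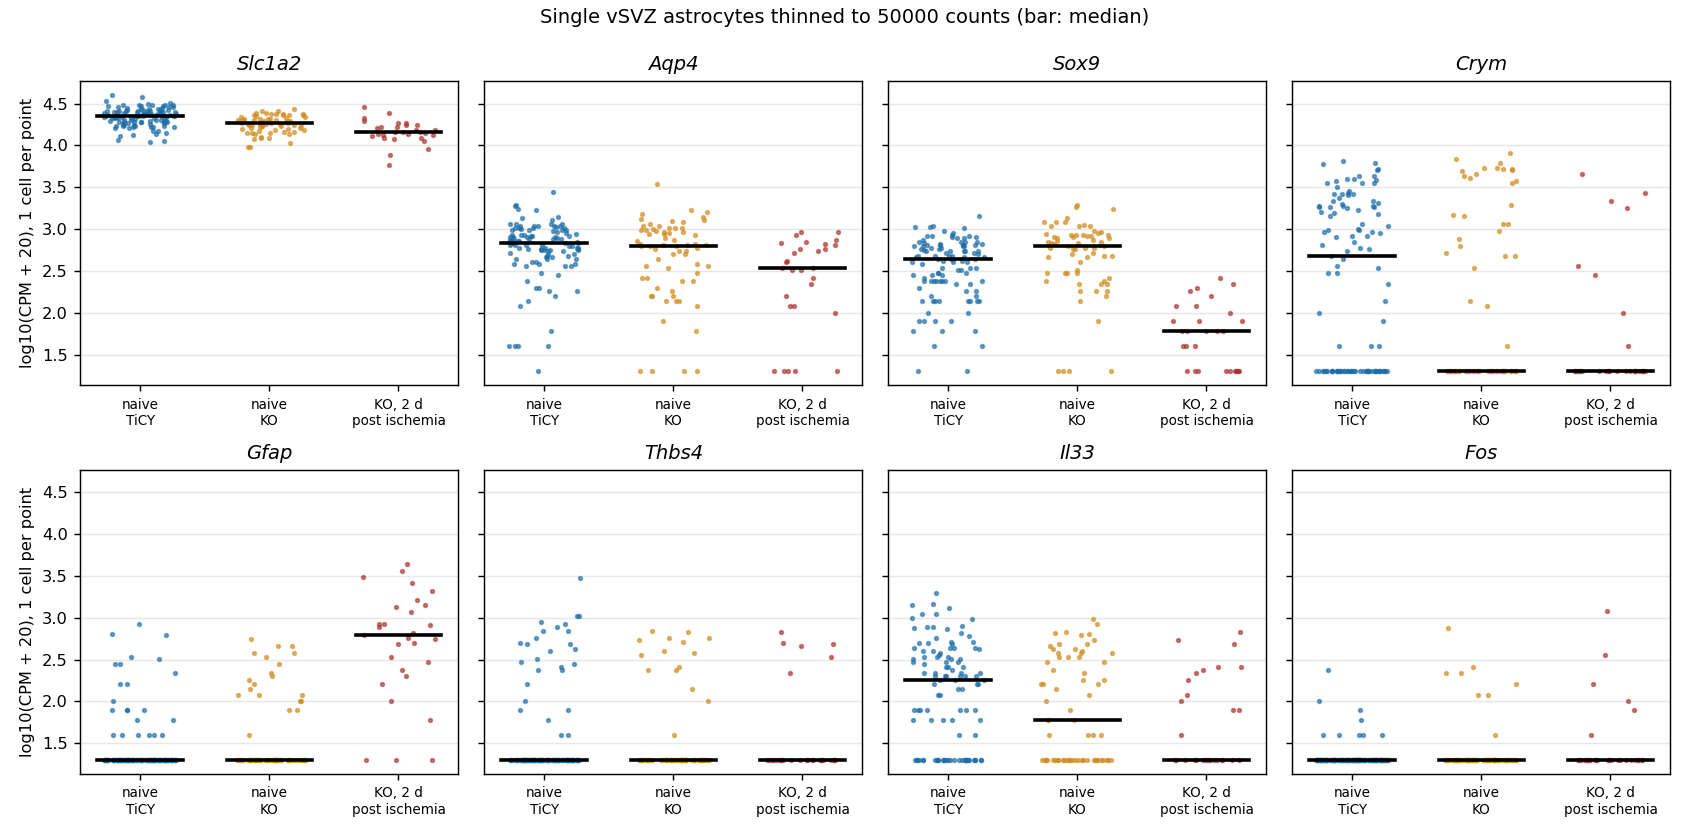
Single vSVZ astrocytes thinned to 50000 counts, by arm, as log10(CPM + 20) for 8 genes; each point is a cell and each bar the median. Slc1a2 is high in every cell. Aqp4 and Sox9 have counts in most cells, least often in the ischemic KO arm. Crym, Il33 and Thbs4 split between cells with and without counts, and Gfap is high in the ischemic KO arm.

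The other genes of largest spread included Htatsf1 (1.68), Scamp1 (1.30), Fry (1.28), Cst3 (1.27), Cables1 (1.16), Mrps33 (1.14), Nxn (1.09), Zc3h13 (1.06), Arhgef26, Dlgap1, Hspe1, Wbp4 and Zfp326. Cst3, the secreted protease inhibitor cystatin C, differed from Crym in being counted in 100% of cells, with CVs of 0.375, 0.397 and 0.440 that were large only for its high level. Crym and Cst3 kept their place among the 15 under all 6 alternative settings tried, and Wbp4 under 0. Genes that defined the difference from qNSC2 were also uneven within the label: Il33 had a median of 160.0, 40.0 and 0 CPM per thinned cell and a highest cell of 1980, 960 and 660 CPM. Thbs4 was counted in 24.8%, 22.4% and 20.7% of vSVZ astrocytes, with highest cells of 2940, 680 and 660 CPM, while the median qNSC2 cell had 420, 390 and 300 CPM. The Thbs4 counts thus lay in a minority of the labelled cells.

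**Figure D5:**
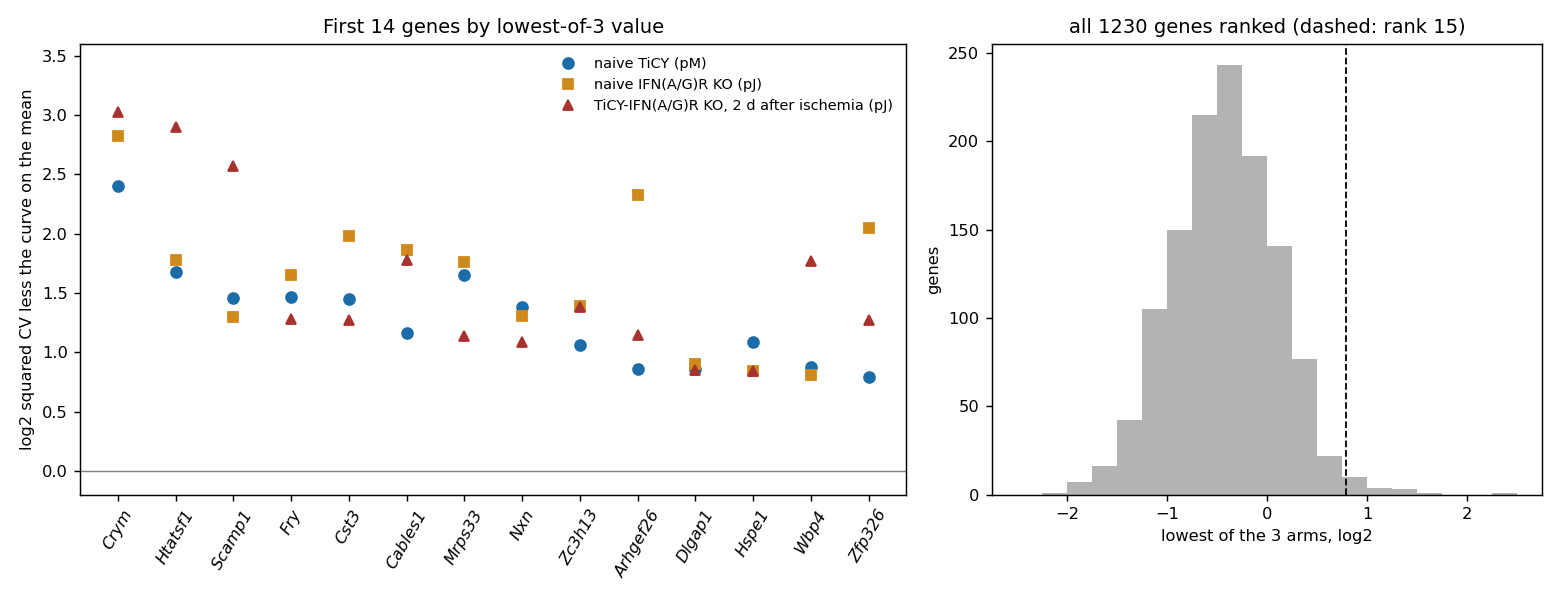
Spread between vSVZ astrocytes beyond that of genes of like mean, as the log2 residual of the squared CV: left, the first 14 genes by lowest-of-3 value, by arm; right, the histogram of all 1230 ranked genes, with a dashed line at rank 15. Crym stands apart at 2.40, and most genes lie below 0.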

How the data were processed

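RNA was measured in single cells sorted by flow cytometry from mouse brain, and 1 labelled sample was 1 cell. The deposited matrix holds raw read counts per gene that the authors made; STAR, featureCounts and GRCm38 (mm10) are named in the submitters' processing notes, with no strand setting, so reads of overlapping or antisense genes cannot be told apart. That matrix has 2584 cells and 35606 gene identifiers, 35455 of them with a symbol; 603 cells with no label were not used.

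Counts were summed over the cells of each type in each of the 3 arms, giving 18 sums of 6 types. The sums were scaled by TMM, and log2 ratios are of (CPM + 5). The contrast with striatal astrocytes was tested with edgeR 4.0.16 (quasi-likelihood F test, filterByExpr, Benjamini-Hochberg 0.05) in R 4.3.3, without a block, and with DESeq2 1.42.0 and limma 3.58.1 as alternatives; the fit was tested on simulated data. Its p-values measure the spread over 3 arms that differ in genotype, treatment and replicate letter. Contrasts with the lineage types and between arms had no test; intervals are exact Poisson for sums and exact binomial (Clopper-Pearson) for shares. Cells were thinned to 50000 counts for shares and spread (numpy 2.4.6, lowess of statsmodels 0.14.6, fraction 0.3). No doublet caller was run, since cells were sorted singly into plates.

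Named genes were the 5 markers, the 6 leading genes per direction and lineage comparison, up to 4 members of each list (the 2 highest and the 2 with the largest ratio), the 15 genes of largest spread and the 4 interferon receptor genes; since edgeR called none, striatal genes were taken from those 2-fold apart in each arm, a choice made after seeing the data. A few others (Junb, Btg2, Klf4, Gpm6a, Malat1, Ifit1, Mx1, Isg15, Kcnj10, Slc6a11, Cnp, Pdgfrb, Rarres2, Ifi27, Tapbp, B2m and DESeq2 calls) are named after their values were seen. Some genes that the rule names are not reported here. The members and the gene lists were chosen with earlier results of these data known.

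The arm pairs the vSVZ and striatal sums, which come from the same replicate letter: their deviations from the type means correlated at 0.251, 0.157 and 0.166 within arms and at -0.14 to -0.04 between arms.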

Additional observations from a re-analysis of the deposited data

Results flagged for a closer look

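In 5 of the named genes (of 46 and 249 genes in all for the naive and the knockout comparison), the ratio between 2 arms had opposite signs, each past 2-fold, in vSVZ and in striatal astrocytes; the difference between the tissues was not tested, since each arm is 1 sum. In naive KO over naive TiCY cells, Aspa (aspartoacylase) had a log2 ratio of -1.34 in vSVZ and 1.14 in striatal astrocytes, and Fos had 1.67 and -2.04. In ischemic KO over naive KO cells, Ddit4 (a stress-induced inhibitor of mTOR signalling) had -1.03 and 2.74, Fgfr3 had -2.31 and 1.36, and Irf1 (an interferon regulatory factor) had 2.13 and -1.47.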

How the results depend on the processing

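Of 3971 values of single genes or shares recomputed under alternatives, 3556 kept their value within the limits set, 415 moved and 0 reversed. A change of sign was labelled reversed only for genes already counted as at least 2-fold. In any other gene it falls under kept or moved, so the 0 does not speak for those. Of 128 counts, 94 stayed within 1.5 times, 30 moved and 4 crossed from no calls to some. Against striatal astrocytes, DESeq2 called 10 higher and 2 lower genes, and edgeR with no filter on low counts called 13 and 3; Meg3 then had an adjusted p of 2.1e-09. A pseudocount of 20 CPM gave 173 higher and 86 lower genes against qNSC2, 10 and 12 against striatal astrocytes, 547 past 2-fold between the naive arms (1420 at 5 CPM) and 2087 between the knockout arms (3464 at 5 CPM). With no minimum level there were 249 lower genes against qNSC2, and 39 higher and 51 lower against striatal astrocytes. Leaving out each arm in turn (naive TiCY, naive KO, ischemic KO) gave 453, 423 and 477 higher and 353, 295 and 283 lower genes against qNSC2, 1523, 1307 and 1607 and 848, 843 and 807 against aNSC, and 234, 40 and 59 and 153, 55 and 78 against striatal astrocytes; fewer sums then had to pass. Of the 15 genes of largest spread, 7 remained at 20000 counts per cell, 6 at a mean of at least 20, 7 in cells of at least 100000 counts and 10, 7 and 8 when an arm was left out in the same order. The paired analysis, with the arm as a replicate block, called 0 genes higher and 0 lower, and changed no call. The 2-fold description of striatal astrocytes and its alternatives were added after seeing the data. The cause of these shifts was not tested. The 36 cells and 5689487 counts of the ischemic KO arm limit what low genes there can show.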

Other observations

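Genes that lay well below the spread of genes of like mean in each arm (naive TiCY, naive KO, ischemic KO) included Laptm4a, a lysosomal membrane protein, with residuals of -1.0, -1.56 and -2.23, and the glycolytic gene Gapdh, with -1.69, -1.33 and -1.37. Others were less even across arms: Serpine2, a secreted protease inhibitor, had -0.36, -0.45 and -1.98, and Gpr37l1, an orphan receptor gene of astrocytes, had -1.27, -0.45 and -1.72. The vSVZ astrocyte label was used in 2 of the 11 replicate letters and the label qNSC1 in 5 others, and no letter held both. The rank correlation of Gfap with Vim over thinned vSVZ astrocytes was 0.03, 0.43 and 0.40 in the 3 arms, and that of Gfap with Thbs4 was 0.26, 0.22 and -0.00, given as descriptions of cells that share a library.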
